A study of Arabidopsis thaliana with 12 samples.

Results

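The loci described here were all those in the deposited comparison between FLH and FLL, the high and the low version of a fluctuating light regime. The authors listed a locus when its adjusted p in DESeq2 did not exceed 0.05 and its log2 fold change was 0.5 or more in size. There were 2063 such loci among 20865 tested (9.89%), out of 6520 distinct loci listed in any of the 4 comparisons of the series. In FLH, 1123 loci were higher (5.38% of those tested) and 940 were lower (4.51%). These calls and their fold changes are what chose the loci, so they are given below as a description.

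RNA-seq of polyadenylated transcripts was carried out on leaves of Arabidopsis thaliana Col-0, the common reference accession, with 3 libraries from each of 4 regimes. FLH plants grew under light that climbed from dawn, peaked and dipped through the day like a natural record, and FLL plants grew under the same record at reduced intensity. The square regimes, SQH and SQL, held the lamp at a single level all day at high or low intensity. Plants of all 4 regimes were wild type, came from a single parent and had 22 days of acclimation per the labels, and the study's methods describe 3 independent replicates per regime.

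Light intensity reaches the nucleus of a leaf cell through photoreceptors, through signals from the chloroplast and through the sugars that photosynthesis makes. The circadian clock sets the daily window in which many of these genes respond, with CCA1 and LHY active around dawn and TOC1 and its partners active towards dusk. Jasmonate is an oxygenated fatty acid hormone whose precursors are made in the chloroplast, and it acts by the removal of JAZ repressors from MYC transcription factors. CBF factors bind the promoters of cold and dehydration genes, and touch genes are transcripts known for their fast response to mechanical and other sudden stimuli.

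Values per library were not used here, so each locus is described by its log2 fold change of FLH over FLL with the standard error (SE) of the authors' fit, written as a value ± SE, n = 3 libraries per regime. The mean normalised count is the authors' average of size-factor-scaled counts across the 12 libraries. It is not scaled to transcript length and is not used to rank genes by molecules per cell. Library depth is unknown from these tables, and in the study's alignment statistics the FLL libraries stand apart from the FLH libraries, so that regime and that split cannot be told apart. A lower value can also mean fewer cells of a type or less RNA per cell, which bulk leaf RNA cannot tell apart. The methods describe a midday harvest of leaves for DNA, regime after regime within minutes, and give no separate time for RNA. In its RNA-seq results the paper states that the whole harvest took minutes. It calls an effect of sampling time on the wider spread of the fluctuating groups unlikely.

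Which regime a positive fold change favours was read from the errors in tables that share a regime. Of the regimes not shared, the lower one has the larger error. All 284 checks that could be made this way fitted a positive value as higher in the regime named first, here FLH. Some loci, such as JAZ10, were checked with both comparisons that share a regime, so the distinct loci were fewer. The sides of the study's volcano plots are labelled the other way round, so every direction below rests on this reading. The leaf label was borne out by the listed loci with the highest mean normalised counts, between 272948 and 503060.0. They were RCA (rubisco activase), LHCB5 and CAB2 (chlorophyll-binding antenna proteins) and RBCS3B (rubisco small subunit). Of 5 mesophyll markers CAB2 and RCA were listed, both lower in FLH (-1.97 ± 0.45 and -1.83 ± 0.48), the same direction as the photosynthesis genes below, and the part of cell composition in those falls was not tested. None of the 12 seed and flower markers and none of the 7 vascular markers was listed. Of 9 guard cell markers, MYB60 alone was listed (-1.07 ± 0.31), and of 6 epidermis and trichome markers GL2 alone (1.7 ± 0.56).

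Promoters of 5 listed loci are shown because each holds a motif whose frequency is given below. They run from 250 bases before to 50 bases after the gene start in RefSeq's TAIR10.1 genome, written 5′ to 3′ on the gene's strand. Capitals mark the G-box CACGTG in the clock genes LHY (chr1:37822-38121, minus strand) and CCA1 (chr2:19245341-19245640, plus strand), both lower in FLH. They mark the dehydration-responsive element (DRE), ACCGAC or GCCGAC, in LTI78 (chr5:21240467-21240766, plus strand) and the CGCG box, CGCGTT or ACGCGT, in the touch gene TCH2 (chr5:14999570-14999869, minus strand). They mark the telo-box AAACCCTA in NUC-L1 (chr1:18097831-18098130, plus strand), and all 3 of these loci were higher in FLH. Matches were taken on both strands. The sequences follow.
LHY: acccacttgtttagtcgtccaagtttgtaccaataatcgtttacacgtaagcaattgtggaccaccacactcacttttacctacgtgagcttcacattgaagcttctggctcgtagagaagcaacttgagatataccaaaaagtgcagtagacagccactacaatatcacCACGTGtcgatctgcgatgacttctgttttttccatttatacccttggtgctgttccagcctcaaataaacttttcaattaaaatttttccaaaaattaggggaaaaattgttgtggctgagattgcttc
CCA1: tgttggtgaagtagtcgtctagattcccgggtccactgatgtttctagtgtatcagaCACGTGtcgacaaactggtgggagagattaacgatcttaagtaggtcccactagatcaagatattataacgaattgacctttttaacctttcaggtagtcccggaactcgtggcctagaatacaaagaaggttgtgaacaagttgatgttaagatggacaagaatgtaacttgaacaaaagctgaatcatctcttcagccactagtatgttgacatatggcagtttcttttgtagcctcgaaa
LTI78: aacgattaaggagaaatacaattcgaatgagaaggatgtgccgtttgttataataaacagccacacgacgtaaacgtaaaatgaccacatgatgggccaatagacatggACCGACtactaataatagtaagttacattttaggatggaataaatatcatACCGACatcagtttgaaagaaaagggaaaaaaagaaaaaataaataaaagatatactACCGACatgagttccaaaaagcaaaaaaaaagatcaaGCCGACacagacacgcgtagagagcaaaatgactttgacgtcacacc
TCH2: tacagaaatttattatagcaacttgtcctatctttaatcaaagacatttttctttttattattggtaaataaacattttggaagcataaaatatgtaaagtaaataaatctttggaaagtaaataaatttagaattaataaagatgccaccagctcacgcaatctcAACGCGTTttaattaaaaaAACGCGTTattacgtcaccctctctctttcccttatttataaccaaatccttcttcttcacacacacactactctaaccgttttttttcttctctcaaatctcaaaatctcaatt
NUC-L1: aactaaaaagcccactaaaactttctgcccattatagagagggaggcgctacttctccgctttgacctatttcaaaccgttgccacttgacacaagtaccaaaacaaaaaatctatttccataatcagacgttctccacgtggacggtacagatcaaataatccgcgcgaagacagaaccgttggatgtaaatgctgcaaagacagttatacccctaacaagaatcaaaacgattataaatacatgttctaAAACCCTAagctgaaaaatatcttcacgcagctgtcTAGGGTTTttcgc

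The listed loci higher in FLH had larger fold changes than those lower in FLH. The median absolute log2 fold change was 2.2 for the loci higher in FLH and 1.48 for those lower, and 666 and 279 loci passed an absolute value of 2. Among loci whose mean normalised count was 1000 or more the medians were 1.99 and 1.33. SEs were larger on the higher side too (median 0.61 against 0.42 on the lower side). A locus is listed by its p, so a larger SE calls for a larger fold change. The part of this rule in the contrast was not tested. Among the listed loci, those with the highest mean normalised counts were mostly lower in FLH. Of the 20 listed loci with the highest mean normalised count, 18 were lower in FLH. Of the listed loci above a mean of 10000, only 38.6% were higher in FLH. Loci that were not listed are not covered by these counts. The pattern can be seen in the plot of fold change against mean count.

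**Figure D1:**
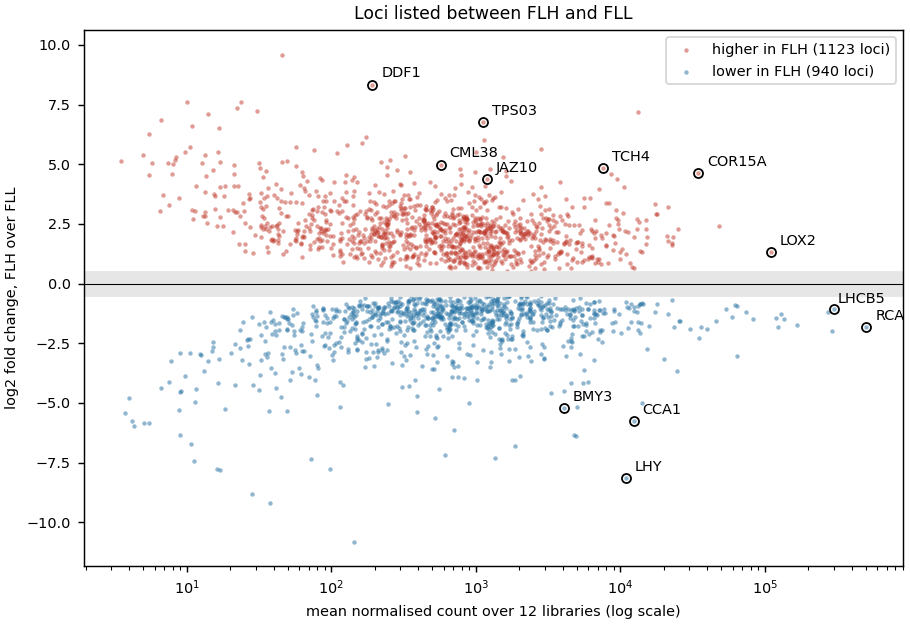
Log2 fold change of FLH over FLL (vertical axis) against the mean normalised count over 12 libraries (horizontal axis, log scale) for the 2063 listed loci, 1123 higher in FLH in red and 940 lower in FLH in blue; the grey band is the zone below the 0.5 threshold. The right-hand end of the plot, with RCA and LHCB5, holds mostly loci that were lower in FLH, and LHY stands at -8.16.

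The loci higher in FLH with the smallest p were led by JAZ10, a jasmonate-inducible repressor of jasmonate signalling, at 4.36 ± 0.47 (adjusted p = 3.7e-16, authors' DESeq2) and a mean normalised count of 1191. Beside it stood CML38, a calmodulin-like calcium sensor known from touch and wounding (4.99 ± 0.61), AGP1, an arabinogalactan protein of the cell surface (3.42 ± 0.44), and AT1G19380, AT5G65300 and AT5G13205, which the annotation does not assign a process (2.69 ± 0.3, 3.45 ± 0.42 and 3.01 ± 0.38). The loci with the highest lower end of the 95% interval were AT3G15357, annotated as a phosphopantothenoylcysteine decarboxylase subunit (9.59 ± 1.85), the volatile terpene synthase TPS03 (6.75 ± 1.01), the CBF relative DDF1 (8.33 ± 1.87) and the thaumatin-like protein AT4G36010 (6.03 ± 0.86). The FLL means of AT3G15357 and DDF1 cannot have exceeded 0.236 and 2.38 normalised counts, so the size of their fold changes is poorly fixed. The highest mean normalised counts among the loci higher in FLH belonged to the chloroplast lipoxygenase LOX2 (109905), the beta-glucosidase BGLU18 (48059.6), COR15A, a chloroplast protein of cold acclimation (34555), and the allene oxide synthase AOS (25098). Their fold changes were 1.33 ± 0.42, 2.4 ± 0.53, 4.61 ± 0.99 and 2.28 ± 0.51 in that order.

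The loci lower in FLH with the smallest p were AT5G35740, a carbohydrate-binding X8 protein (-2.86 ± 0.35, adjusted p = 1.4e-12, authors' DESeq2), the ERD family membrane protein AT4G15430 (-7.17 ± 0.93), AT5G06270 (-2.03 ± 0.28), the clock factors LHY (-8.16 ± 1.13) and RVE1 (-6.81 ± 0.98), and AT5G56850 (-1.79 ± 0.26). RVE1 links the clock to auxin production. The largest fall of all was that of AT1G26790, a Dof-type zinc finger factor, at -10.81 ± 2.06, where the mean in FLH cannot have exceeded 0.320 normalised counts. Such a bound follows from the mean over 12 libraries, and it is under 3 normalised counts in the lower regime for 60 loci. Of the 77 loci past an absolute value of 5, 41 were of this kind, so the size of their fold changes is poorly fixed. At the other end of the table, the loci nearest the fold threshold were AT5G59950 (0.52 ± 0.16) on the higher side and AT1G18335 (-0.51 ± 0.18) on the lower side, and the adjusted p reached 0.0498 (AT5G27395, authors' DESeq2).

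The pathway descriptions below use 43 lists with 950 distinct loci. The lists were chosen with earlier results of these data known, so their counts are not independent of these data. Patterns for B-box, SAUR, trichome birefringence-like, lectin, peptidyl-prolyl isomerase and berberine-type proteins were written after the annotation texts had been seen. Their counts are not independent of these data either. A locus that is in no table may have missed a threshold or may have been too weak to test, and these cases cannot be told apart. Counts are given beside the shares of all tested loci stated above, 5.38% higher and 4.51% lower in FLH. List and family counts, however, are over annotated loci, tested or not. Of all 27562 annotated protein-coding loci, 1110 were higher in FLH and 907 lower.

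Jasmonate genes were among the most uniformly shifted groups, all but MYC4 of those listed being higher in FLH. Of 15 loci of jasmonate synthesis, 9 were higher in FLH and 0 lower. They cover the chloroplast steps, with the lipoxygenases LOX3 (3.59 ± 0.58), LOX4 (4.27 ± 0.73) and LOX2 (1.33 ± 0.42), the allene oxide synthase AOS (2.28 ± 0.51) and the allene oxide cyclases AOC1 (2.96 ± 0.52), AOC2 (2.68 ± 0.45) and AOC3 (4.04 ± 0.73). They also cover the peroxisome, with the reductase OPR3 (4.05 ± 0.62) and the ligase OPCL1 (2.3 ± 0.58). LOX2 had by far the highest mean count of the route (109905) and the smallest fold change, whereas AOC3 had the lowest mean count (948) and one of the larger fold changes. AOC1, AOC2 and AOC3 lie side by side on chromosome 3 (chr3:9403779-9405338 for AOC1) and are close copies, so that reads may have been split among them.

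Genes that remove the active hormone were higher in FLH as well, 5 of 8 with 0 lower. The hydroxylases and oxidases of jasmonoyl-isoleucine were CYP94B3 (5.51 ± 0.79), CYP94C1 (5.31 ± 0.91) and CYP94B1 (3.23 ± 0.8), and the amidohydrolases were ILL6 (1.83 ± 0.49) and IAR3 (1.73 ± 0.48). Of 12 JAZ repressors 8 were higher in FLH and 0 lower. JAZ7 (4.79 ± 0.82), JAZ8 (4.56 ± 0.66) and JAZ10 (4.36 ± 0.47) were ahead of JAZ5 (2.32 ± 0.62), JAZ1 (2.2 ± 0.47), TIFY7 (JAZ9, 1.7 ± 0.57), TIFY10B (JAZ2, 1.57 ± 0.37) and JAZ12 (0.65 ± 0.23). The 95% intervals of JAZ7, JAZ8 and JAZ10 overlapped one another, and that of JAZ12 lay below all 3.

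The receptor and transcription factor list did not share this uniformity. Of its 12 loci, the AP2/ERF factors ORA47 (2.91 ± 0.79) and ORA59 (2.31 ± 0.65) were higher in FLH, and MYC4, a direct target of the JAZ repressors, was lower (-1.88 ± 0.46). Of 10 output genes 4 were higher in FLH: the storage protein and phosphatase VSP1 (4.37 ± 0.88), the cystine lyase CORI3 (3.21 ± 0.67), the defensin PDF1.2 (2.31 ± 0.62) and WRKY40 (3.37 ± 0.94). PDF1.2 has close copies, among them PDF1.2c, which was higher in FLH too (3.6 ± 0.78).

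**Figure D2:**
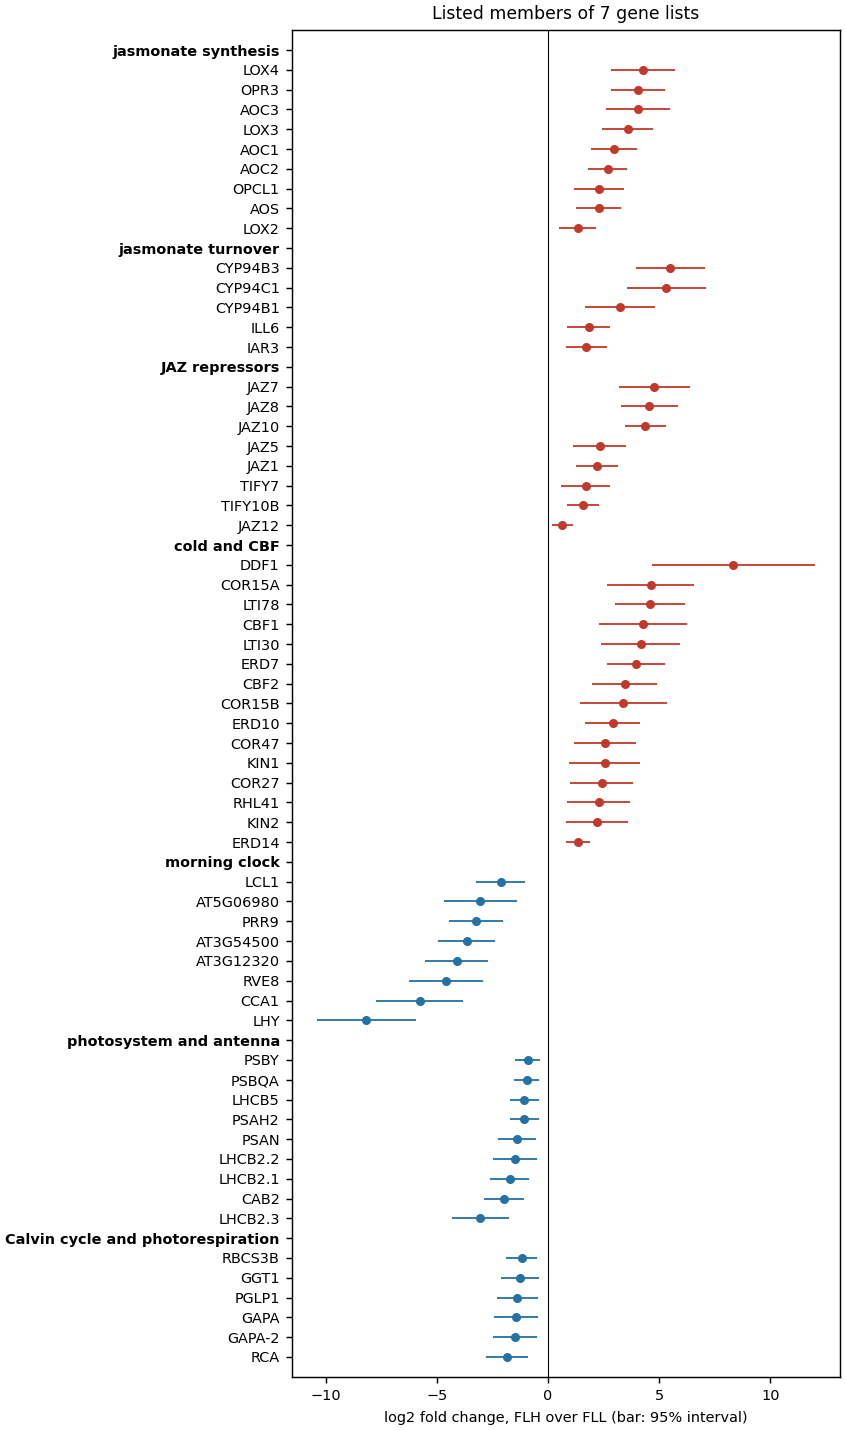
Log2 fold change of FLH over FLL with its 95% interval for the listed members of 7 gene lists, red for higher and blue for lower in FLH. All points of the jasmonate and cold lists lie right of 0, all points of the morning clock, photosystem and Calvin cycle lists lie left of it, and all members of both photosynthesis lists lie closer to 0 than LHY and CCA1.

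Touch genes were higher in FLH in 14 of 22 cases and lower in 0. The largest values were those of PHI-1 (an EXORDIUM-like wall protein, 5.62 ± 0.91), CML38 (4.99 ± 0.61), TCH4 (a xyloglucan endotransglucosylase that remodels the wall, 4.84 ± 0.63), ERF6 (an ethylene response factor, 3.75 ± 0.87) and EXO (3.55 ± 0.57). TCH2, a calmodulin-like protein, was at 2.46 ± 0.63, and its gene overlaps AT5G37760. The mean of each regime could be computed for loci listed in at least 3 of the 4 tables, with no error of its own. TCH4 averaged 20180.1 normalised counts in FLH and 706 in FLL, and 339 in SQH and 9336 in SQL. PHI-1 averaged 7797 in FLH, 159 in FLL, 255 in SQH and 3041 in SQL. In both genes FLH and SQL were the high regimes, and FLL and SQH the low ones.

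WRKY factors, which bind W-boxes in defence promoters, were higher in FLH without exception among those listed: 8 of the 19 early-defence members, and 9 of 72 annotated WRKY loci. Of the 8, 5 had an adjusted p of at most 0.01 (authors' DESeq2). WRKY18 was at 3.57 ± 0.68, WRKY53 at 2.81 ± 0.69 and WRKY22 at 2.11 ± 0.53. WRKY18 averaged 16207 in FLH and 1366 in FLL, and 1866 in SQH and 5394 in SQL, a pair of regimes between which it was not listed. The AP2/ERF family, to which the ethylene and cold factors belong, had 26 higher and 2 lower in FLH, of 153 annotated. Its smallest p were those of CEJ1 (4.09 ± 0.65) and ABR1 (3.82 ± 0.61), and ERF15 was one of the loci that were lower (-1.19 ± 0.32). The family of calmodulin and EF-hand proteins, which sense calcium, had 14 higher and 4 lower in FLH, of 134 annotated.

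The salicylic acid list of 26 loci had a single listed member, the salicylic acid receptor NPR3 (1.31 ± 0.43). The ethylene list of 23 loci likewise had only ACS6, an enzyme of ethylene synthesis (1.96 ± 0.46), and the hypoxia list of 15 only the alcohol dehydrogenase ADH1 (3.0 ± 0.8). The heat shock list of 32 loci had HSFA3 higher (2.33 ± 0.62) and HSA32 lower (-2.1 on the log2 scale) in FLH.

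Cold and dehydration genes were higher in FLH in 15 of 24 cases and lower in 0. Of the regulators, DDF1 was at 8.33 ± 1.87, CBF1 at 4.28 ± 1.01 and CBF2 at 3.45 ± 0.75, with mean normalised counts of 193, 68.2 and 87.2. Of the targets, COR15A was at 4.61 ± 0.99, LTI78 (RD29A) at 4.59 ± 0.81, LTI30 at 4.16 ± 0.91 and COR15B at 3.38 ± 1.0. The dehydrins ERD10 (2.9 ± 0.62), COR47 (2.58 ± 0.71) and ERD14 (1.34 ± 0.28) had smaller fold changes and mean normalised counts of 18043 (ERD10), 13448 (COR47) and 14219.8 (ERD14).

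COR27, a cold gene that also acts on the clock, was at 2.41 ± 0.73, and it was nearly silent under the square regimes. It averaged 1801 normalised counts in FLH and 339 in FLL, and 5.33 in SQH and 2.67 in SQL. The abscisic acid list shared little of this shift, with 3 of 35 loci higher and 1 lower. Those higher in FLH were the hydroxylases CYP707A3 (2.7 ± 0.52) and CYP707A1 (2.01 ± 0.63), which degrade the hormone, and the receptor PYL5 (2.5 ± 0.64). The synthesis enzyme ABA2 was lower (-2.04 ± 0.43), and so was ABA1, the epoxidase of the xanthophyll cycle (-1.8 ± 0.57).

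The morning part of the clock was lower in FLH in 8 of 10 loci and higher in 0. LHY was at -8.16 ± 1.13 and CCA1 at -5.76 ± 1.0, with mean normalised counts of 10933 and 12382. The related activators RVE8 (-4.59 ± 0.86) and LCL1 (RVE4, -2.13 ± 0.57) were lower too, as were 3 members of the LNK family of coactivators, AT3G12320 (-4.11 ± 0.72), AT3G54500 (-3.66 ± 0.65) and AT5G06980 (-3.05 ± 0.84), and the repressor PRR9 (-3.25 ± 0.62). The mean of LHY in FLH cannot have exceeded 152 normalised counts. Of the 11 evening genes, TOC1 alone was listed, and it was higher in FLH (2.2 ± 0.72).

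SQH with FLH, a comparison that uses the same FLH libraries, gave 7.19 ± 1.13 for LHY, 5.14 ± 1.0 for CCA1 and -4.45 ± 0.72 for TOC1, each as SQH over FLH. None of the 8 morning genes was listed between SQH and SQL. Outside the lists, the clock relatives RVE1 (-6.81 ± 0.98) and ASG4 (RVE3, -6.15 ± 1.09) were lower in FLH, and so was BMY3, a beta-amylase-like protein of the chloroplast (-5.2 ± 0.91). BMY3 was not in the starch degradation list, from which 0 of 18 loci were listed, and 0 of 14 were listed from starch synthesis.

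Around RVE8 on chromosome 3 the neighbouring loci were lower in FLH too. RVE8 lies at chr3:2946239-2949017 and was at -4.59 ± 0.86. Next to it, AT3G09590 at chr3:2944938-2945513, a small CAP-domain protein, was at -7.34 ± 1.56, and the serine tRNA AT3G09595 at chr3:2945696-2945777 at -9.18 ± 1.95. On the other side, AT3G09620 at chr3:2949152-2952220 was at -5.95 ± 1.79, with a mean normalised count of only 4.31. AT3G09590 averaged 1.36 normalised counts in FLH and 219 in FLL, and 68.2 in SQH and 3.41 in SQL, without being listed between SQH and SQL. Whether these counts come from separate transcripts or from RNA of RVE8 itself was not tested.

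Light signalling genes were lower in FLH in 6 of 29 cases and higher in 0, with 2 of the 6 left at an adjusted p of at most 0.01 (authors' DESeq2). They were the COP1 partners SPA3 (-2.67 ± 0.67) and SPA4 (-1.87 ± 0.48), the ubiquitin ligase COP1 itself (-1.0 ± 0.3), the bZIP factor HY5, which COP1 removes in the dark (-2.67 ± 0.77), the bHLH regulator PAR2 (-1.78 ± 0.56) and the blue light receptor PHOT2 (-0.81 ± 0.26). B-box zinc finger proteins, many of which bind or act beside HY5, had 1 higher and 8 lower in FLH, of 24 annotated, while the wider family of B-box, CCT and zinc finger factors had 18 higher and 25 lower in FLH, of 552 annotated. BBX32 (-5.38 ± 1.14), BBX19 (-5.02 ± 0.8), BBX29 (-3.9 ± 0.76) and BBX16 (-3.64 ± 0.56) were lower, and BZS1 was the exception (2.94 ± 0.7). BBX16 averaged 877 in FLH and 10906 in FLL, with 7913 in SQH and 2637 in SQL, but BBX16 was not listed between SQH and SQL, and these means carry no error.

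Photosystem and antenna genes were lower in FLH in 9 of 48 cases and higher in 0. At an adjusted p of at most 0.01 (authors' DESeq2) 3 of the 9 remained, and 4 had a 95% interval wholly below -0.5. The antenna genes LHCB2.3 (-3.04 ± 0.66), CAB2 (-1.97 ± 0.45), LHCB2.1 (-1.73 ± 0.44), LHCB2.2 (-1.47 ± 0.51) and LHCB5 (-1.06 ± 0.33) had mean normalised counts from 63918 to 301024. LHCB2.1 and LHCB2.2 are near-identical copies, and CAB2 has near-identical neighbours, so their split of reads is uncertain. The reaction-centre and oxygen-evolving subunits PSAN, PSAH2, PSBQA and PSBY had log2 fold changes between -1.4 (PSAN) and -0.91 (PSBY).

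Calvin cycle and photorespiration genes showed 6 of 32 lower in FLH and 0 higher. At an adjusted p of at most 0.01 (authors' DESeq2) only 1 of the 6 remained, and 2 had a 95% interval wholly below -0.5. RCA, which keeps rubisco active, was at -1.83 ± 0.48 with the highest mean normalised count of all listed loci (503060.0), and RBCS3B was at -1.19 ± 0.36. The glyceraldehyde phosphate dehydrogenase subunits GAPA (-1.43 ± 0.5) and GAPA-2 (-1.5 ± 0.5) and the photorespiratory aminotransferase GGT1 (-1.26 ± 0.44) were lower as well. PGLP1, a phosphoglycolate phosphatase, was at -1.38 ± 0.47 with a mean of 133, and a near-identical copy of this gene makes that count uncertain. In chlorophyll synthesis 4 of 25 loci were lower, the magnesium chelatase subunit GUN5 (-1.83 ± 0.38), its activator GUN4 (-1.95 ± 0.42), CAO (-1.2 ± 0.33) and CRD1 (-1.17 ± 0.33). GUN4 shares most of its length with AT3G59410. HEMA2, a glutamyl-tRNA reductase at the start of the route, was higher in FLH (1.17 ± 0.25).

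Genes of photoprotection were mostly not listed, 1 of 22 being higher and 2 lower. ELIP2, an early light-induced pigment-binding protein, was higher in FLH by 7.17 ± 2.31, an estimate with a wide error, and STN7, the kinase of state transitions, was lower (-1.06 ± 0.36). Of 30 antioxidant genes, GPX6 (2.01 ± 0.46) and DHAR1 (1.8 ± 0.51) were higher, whereas TAPX (-1.02 ± 0.22), TL29 (-0.86 ± 0.25) and VTC2 (-2.27 ± 0.8) were lower. TAPX and TL29 are located in the thylakoid, and VTC2 acts in ascorbate synthesis. Peptidyl-prolyl isomerases, which help proteins fold, had 1 higher and 7 lower in FLH, of 37 annotated, among them AT3G12345 (-1.55 ± 0.43).

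**Figure D3:**
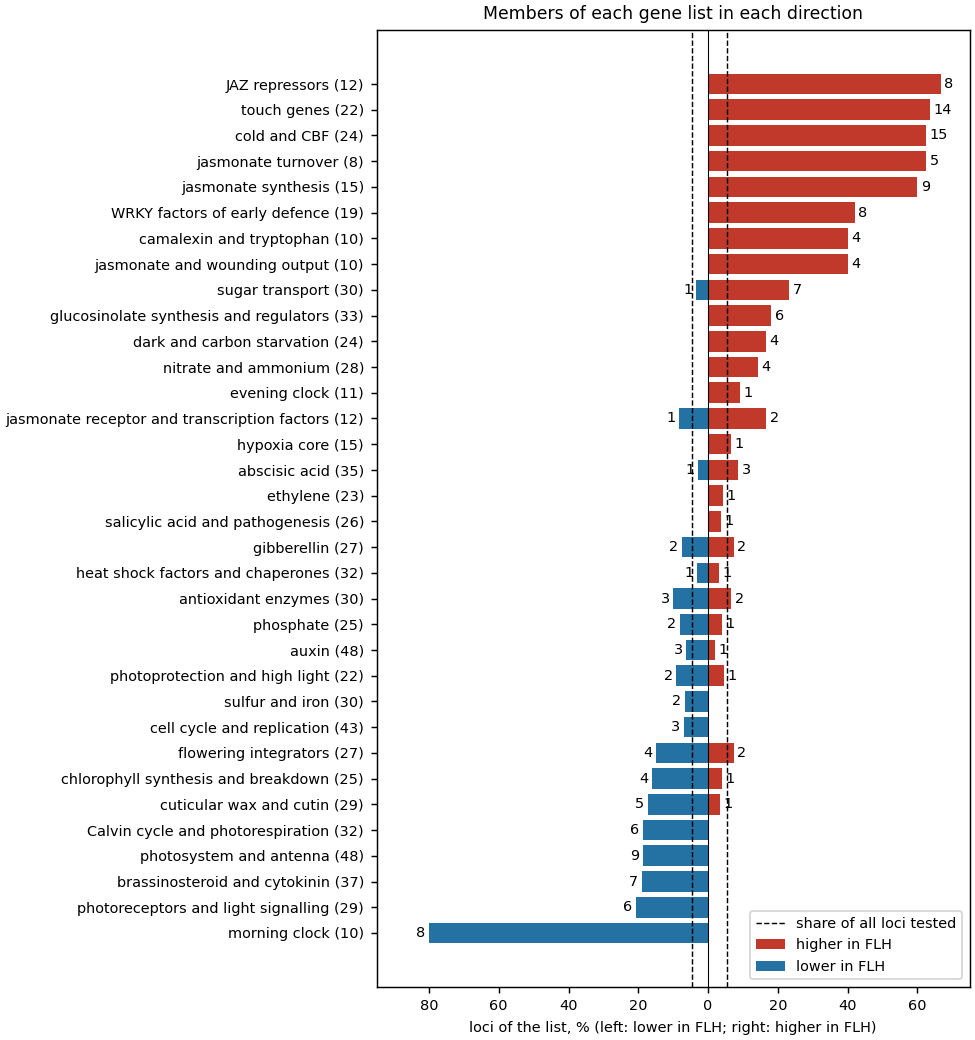
Share of each gene list (percent of its loci, with the list size in brackets) that was higher in FLH (right, red) or lower in FLH (left, blue), with the number of loci beside each bar; dashed lines mark 5.38% and 4.51%, the shares of all tested loci. Lists with 0 listed loci and the cell type markers are left out. Each bar is a share of all loci of its list, tested or not, and the lists were chosen with earlier results known. The JAZ repressors (8 of 12 higher) and the morning clock (8 of 10 lower) stand at the ends.

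Of 30 sugar transporters 7 were higher in FLH and 1 lower. At an adjusted p of at most 0.01 (authors' DESeq2), 2 of those 7 remained. GPT2, a glucose 6-phosphate translocator of the plastid envelope known to respond to increases in light, was at 4.49 ± 0.75. MSS1 (STP13, a hexose importer) was at 2.47 ± 0.79, ESL1 at 1.89 ± 0.42 and ERD6 at 1.57 ± 0.49, while SWEET2 was lower (-2.95 ± 0.76). SAG29 (SWEET15), an exporter of senescing leaves, had the largest fold change of the list (5.91 ± 2.04), and SWEET4 (1.3 ± 0.39) and ERDL6 (0.8 ± 0.26) were also higher. Of 24 genes of darkness and carbon starvation 4 were higher in FLH and 0 lower: SEN1 (3.2 ± 0.88), BCAT-2 (2.74 ± 0.93), XTH24 (2.68 ± 0.58) and GDH2 (2.15 ± 0.58). SEN1 averaged 20219 in FLH and 2201 in FLL, and 16.6 in SQH and 63.1 in SQL, which places both fluctuating regimes above both square regimes.

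Nitrogen genes were higher in FLH in 4 of 28 cases, with NRT1.7, which loads nitrate into the phloem of source leaves (2.19 ± 0.57), NRT1.8 (3.03 ± 1.06), the cytosolic glutamine synthetase GSR 1 (2.1 on the log2 scale) and the ammonium transporter AMT1;1 (1.78 ± 0.54). AMT1;1 shares most of its length with AT4G13505. At an adjusted p of at most 0.01 (authors' DESeq2), 1 of the 4 remained. Phosphate genes were divided, PHO1;H1 being higher (3.54 ± 0.8) and G3Pp1 (-3.11 ± 0.83) and MGD2 (-1.16 ± 0.4) lower, of 25. Of 30 sulfur and iron genes SULTR4;2 (-0.96 ± 0.33) and FRO6 (-1.63 ± 0.57) were lower.

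Genes of indole glucosinolates and tryptophan were listed as higher in FLH, whereas the flavonoid route was not listed. With an adjusted p of at most 0.01 (authors' DESeq2), 2 of the 6 listed glucosinolate loci and 1 of the 4 listed tryptophan loci remained. Of 33 glucosinolate loci 6 were higher and 0 lower, among them CYP83B1 (1.25 ± 0.24), SOT16 (1.2 ± 0.39) and CYP81F2 (3.06 ± 1.01), which act in the indole branch, and its regulator MYB51 (1.66 ± 0.58). IGMT1 (3.08 ± 0.86) and IGMT2 (2.27 ± 0.78) are close copies with mean normalised counts under 100. Of 10 loci of camalexin and tryptophan 4 were higher, including both tryptophan synthase beta subunits, TSB1 (1.6 ± 0.38) and TSB2 (1.77 ± 0.54). None of 36 phenylpropanoid and flavonoid loci and none of 10 loci of glucosinolate hydrolysis was listed. The myrosinase-binding lectins MBP1 (2.28 ± 0.38) and MBP2 (2.3 ± 0.57), adjacent on chromosome 1, were higher in FLH, and mannose-binding and jacalin lectins had 5 higher and 0 lower in FLH, of 45 annotated.

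Wax genes leaned lower, 5 of 29, with 1 higher. The fatty acyl reductase CER4, which makes primary alcohols, was at -3.4 ± 0.52, and KCS2 (-1.74 ± 0.46), CER2 (-1.28 ± 0.36), the exporter ABCG12 (-1.05 ± 0.36) and the regulator MYB16 (-1.39 ± 0.29) were lower as well. AT5G61590 (DEWAX), a repressor of wax genes, was higher (1.48 ± 0.5). KCS2 overlaps AT1G04247 over most of its length.

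The joint brassinosteroid and cytokinin list had called members on the lower side only, whereas the auxin list stayed near the shares of all tested loci. Of 37 brassinosteroid and cytokinin loci 7 were lower and 0 higher, of which 4 had an adjusted p of at most 0.01 (authors' DESeq2), led by the cytokinin response regulators ARR15 (-4.71 ± 0.85), RR16 (-2.62 ± 0.58) and ARR9 (-2.34 ± 0.71). Of 48 auxin loci ARF8 (-1.72 ± 0.36), IAA14 (-2.26 ± 0.51) and IAA12 (-1.69 ± 0.47) were lower, and 1 was higher (1.57 on the log2 scale). SAUR proteins, small auxin-induced proteins of expanding cells, had 3 higher and 12 lower in FLH, of 78 annotated, within an auxin-responsive family that had 9 higher and 22 lower in FLH, of 189 annotated, with SAUR20 at -3.31 ± 0.6 and SAUR24 at -2.35 ± 0.34. Many SAUR genes are close copies in tandem, so single values among them are uncertain. Of 43 cell cycle loci, the kinase inhibitors KRP2 (-2.41 ± 0.57) and ICK1 (-0.75 ± 0.25) and the cyclin CYCD1;1 (-1.61 ± 0.49) were lower and 0 higher.

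The gibberellin list was divided. The DELLA repressor RGL2 (-3.51 ± 0.71) and the synthesis enzyme GA20OX1 (-2.42 ± 0.71) were lower in FLH, and the DELLA repressor RGL3 (1.77 ± 0.56) and the catabolic enzyme GA2OX6 (2.65 ± 0.8) were higher. Expansins, which loosen walls, were listed on both sides, with EXLA1 (3.61 ± 1.01) higher and EXPA1 (-3.16 ± 0.68), EXPA8 (-2.52 ± 0.85), EXPA11 (-2.7 ± 0.65) and EXPB1 (-2.99 ± 0.65) lower. Pectin enzymes had 5 higher (1.79%) and 10 lower (3.57%) in FLH, of 280 annotated. That lower share was near the one of all annotated protein-coding loci, 907 of 27562. Trichome birefringence-like proteins, which acetylate wall polymers, had 0 higher and 8 lower (17.8%) in FLH, of 45 annotated. Xyloglucan enzymes held both TCH4, XTH18 (2.88 ± 0.6) and XTH24 on the higher side and XTH6 (-1.95 ± 0.52) and XTH7 (-2.4 ± 0.74) on the lower side. Aquaporins, which conduct water, had 0 higher and 4 lower in FLH, of 41 annotated, with PIP1B at -1.57 ± 0.47.

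Among 27 flowering genes 2 were higher and 4 lower in FLH. The repressor TEM1 was higher (2.5 ± 0.45), and the Dof factors CDF2 (-3.46 ± 0.81) and CDF3 (-2.44 ± 0.49), which repress CONSTANS, were lower. The FLC relatives went opposite ways, MAF5 being higher (3.67 ± 1.26) and MAF1 lower (-0.61 ± 0.14). SPL5 was at -2.13 ± 0.47, although its locus lies within AT3G15260. MIR157c, whose product acts on SPL transcripts, was lower (-2.58 ± 0.48), and so were 3 precursors of the MIR169 family, MIR169a (-5.35 ± 1.24), MIR169h (-7.45 ± 2.08) and MIR169m (-8.81 ± 2.9). MIR169h and MIR169m had FLH means of at most 0.258 and 0.252 normalised counts, and these are precursors in polyadenylated RNA, not mature microRNAs.

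Genes of ribosome assembly, which the lists do not hold, were listed mostly as higher in FLH. They were described by annotation patterns written after the annotation texts of the listed loci had been seen, so the counts are not independent of that choice. Nucleolar, rRNA and RNA helicase proteins had 20 higher and 3 lower in FLH, of 140 annotated, which is 14.3% higher, and WD-40 and transducin proteins had 17 higher and 2 lower in FLH, of 186 annotated, which is 9.14% higher. Ribosomal proteins had 17 higher and 0 lower in FLH, of 416 annotated, which is 4.09% higher. That share counts untested loci too, so it is not on the same base as the 5.38% of all tested loci. Of all 27562 annotated protein-coding loci, 1110 were higher in FLH, and the ribosomal protein share was near that of all annotated loci. NUC-L1, a nucleolin that organises the nucleolus, was at 2.72 ± 0.82 with a mean normalised count of 13023, and its relative NUC-L2 at 4.35 ± 0.96. NOP56 (2.84 ± 0.91), a core protein of the particles that methylate rRNA, and FIB2 (4.73 ± 1.17), a fibrillarin that carries out this methylation, were higher too.

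Further members were NOP10 of the pseudouridylation particle (2.47 ± 0.73), and IMP4 (2.0 ± 0.65), TOZ (2.27 ± 0.7) and SWA1 (2.38 ± 0.82), which act in rRNA processing. Pentatricopeptide proteins, RNA-binding proteins of mitochondria and chloroplasts, had 21 higher and 3 lower in FLH, of 262 annotated. Mitochondrial carriers had 6 higher and 1 lower in FLH, of 41 annotated, with DIC2 at 3.84 ± 0.61 and UCP5 at 3.68 ± 0.6. These patterns too, and that of the next family, were added after the annotation texts were seen. Berberine-type FAD-binding proteins had 7 higher and 0 lower in FLH, of 27 annotated, led by AT4G20830 (2.9 ± 0.39), which overlaps AT4G20835. Protein kinases, in contrast, were divided evenly, with 41 higher and 41 lower in FLH, of 857 annotated.

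Promoter motifs were counted in each direction, and the motif counts are a description. They are given as shares of promoters with a match on either strand of the 300-base window, beside the share over all 27443 protein-coding promoters, with no test. The intervals below are Wilson 95% intervals that treat promoters as independent and cover counting error only. The CGCG box occurred in 11.9% (132 of 1110, Wilson interval 10.1 to 13.9%) of the loci higher in FLH, in 2.32% of those lower and in 4.28% of all. The DRE occurred in 15% of the loci higher in FLH, 5.51% of those lower and 8.72% of all, and the evening element (AAAATATCT) in 6.76%, 1.21% and 2.82% in the same order.

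The W-box (TTGACC or TTGACT) was found in 40.3% of promoters of loci higher in FLH, 27.6% of those lower and 32.4% of all. The G-box was found more often on both sides, in 11.4% of those higher and 10.4% of those lower, against 7.68% of all, and the ABRE (ACGTGG or ACGTGT), which can overlap it, in 26.6%, 23.2% and 18.9%. The telo-box was the scarcest on the lower side relative to all promoters, with 8.11% of those higher, 1.32% of those lower and 6.22% of all. In the 250 bases before the start alone, the telo-box was in 3.51% of those higher and 4.49% of all, so its order between these groups depended on the window. The GCC-box (GCCGCC) was found in 2.88%, 1.54% and 2.57%, the I-box (GATAAG) in 15.9%, 15.9% and 14.6%, and the heat shock core (GAANNTTC) in 14.3%, 9.81% and 11.6%. Within the lists, 6 of the 8 morning clock promoters held a G-box, as the sequences of LHY and CCA1 show. A DRE was in 4 of the 15 listed cold promoters and a CGCG box in 2 of the 14 listed touch promoters. Most promoters of those 2 groups thus lacked the motif shown in LTI78 or TCH2. LTI78 held 4 DREs, TCH2 held 6 overlapping CGCG matches at 2 places, and NUC-L1 held 2 telo-boxes, both after the gene start.

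Listed loci also lay beside one another on the chromosomes. Among adjacent protein-coding loci, 225 pairs had both members listed, and in 161 of them both members went the same way (71.6%). There were 15 runs of at least 3 such loci, including AOC1 to AOC3, the lectins AT1G52000, MBP2 and MBP1, and the group around RVE8. No expected number of pairs or runs was computed. Of all listed loci 54.4% were higher in FLH, so many pairs would share a direction whatever their position. By type, the 2063 loci comprised 2017 protein-coding loci, 28 pseudogenes, 6 microRNA precursors, 11 other noncoding loci and 1 without an annotation record. Of all listed loci 79 had most of their bases inside another gene, which matters because strandedness of the counting is not stated.

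To ask whether intensity had the same effect under the other light pattern, the fold changes were set beside those of SQH over SQL, a comparison that uses none of the FLH or FLL libraries. Between SQH and SQL 665 of 21349 loci were listed (3.11%). The loci in both tables numbered 141, which is 6.83% of those between FLH and FLL and 21.2% of those between SQH and SQL. Of these, 107 had opposite directions, 71 of them higher in FLH than in FLL and lower in SQH than in SQL, and 34 had the same direction. A two-sided z test of the difference, adjusted by Benjamini-Hochberg over 141 loci, passed 0.05 in all 107 loci with opposite directions and in 0 of the 34 others, but it uses the called fold changes that chose the loci, and opposite calls nearly force it to pass. It therefore only orders the loci here.

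First in that order were TCH4 (4.84 ± 0.63 for FLH over FLL, -4.78 ± 0.63 for SQH over SQL), EXO (3.55 ± 0.57 and -3.89 ± 0.57), the AP2/ERF factor DREB26 (4.0 ± 0.77 and -5.68 ± 0.79) and the LysM protein AT5G23130 (1.11 ± 0.22 and -1.62 ± 0.23). Other loci with opposite directions were CYP707A3, WRKY53, ACS6, MYB51, NPR3 and ORA59, all higher in FLH, and MYC4 and KCS2, both lower in FLH. Loci with the same direction included GH3.9, an auxin-conjugating enzyme (-2.79 ± 0.45 for FLH over FLL and -2.13 ± 0.45 for SQH over SQL), MIR822 (-2.15 ± 0.42 and -2.16 ± 0.49), the ribonuclease RNS1 (2.14 ± 0.46 and 1.99 ± 0.46) and the methyl esterase MES5 (2.33 ± 0.35 and 1.41 ± 0.35). MIR822 overlaps AT5G03553. GPT2 (2.97 ± 0.75 for SQH over SQL), CYP94B1 (3.05 ± 0.8) and JAZ12 (0.78 ± 0.23) also had the same direction under both patterns. For GPT2 the difference was 1.52 ± 1.06, which does not show that the effects were equal.

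**Figure D4:**
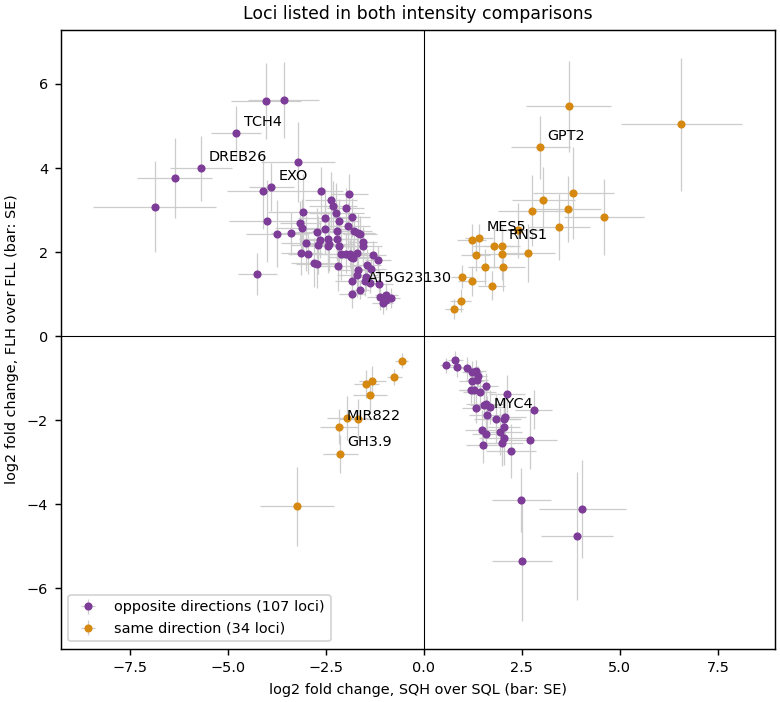
Log2 fold change of FLH over FLL (vertical axis) against that of SQH over SQL (horizontal axis) for the 141 loci listed in both comparisons, with bars of 1 SE; purple points have opposite directions (107 loci) and orange points the same direction (34 loci). The upper left holds 71 points, among them TCH4, EXO and DREB26, which are higher in FLH than in FLL and lower in SQH than in SQL.

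**Figure D5:**
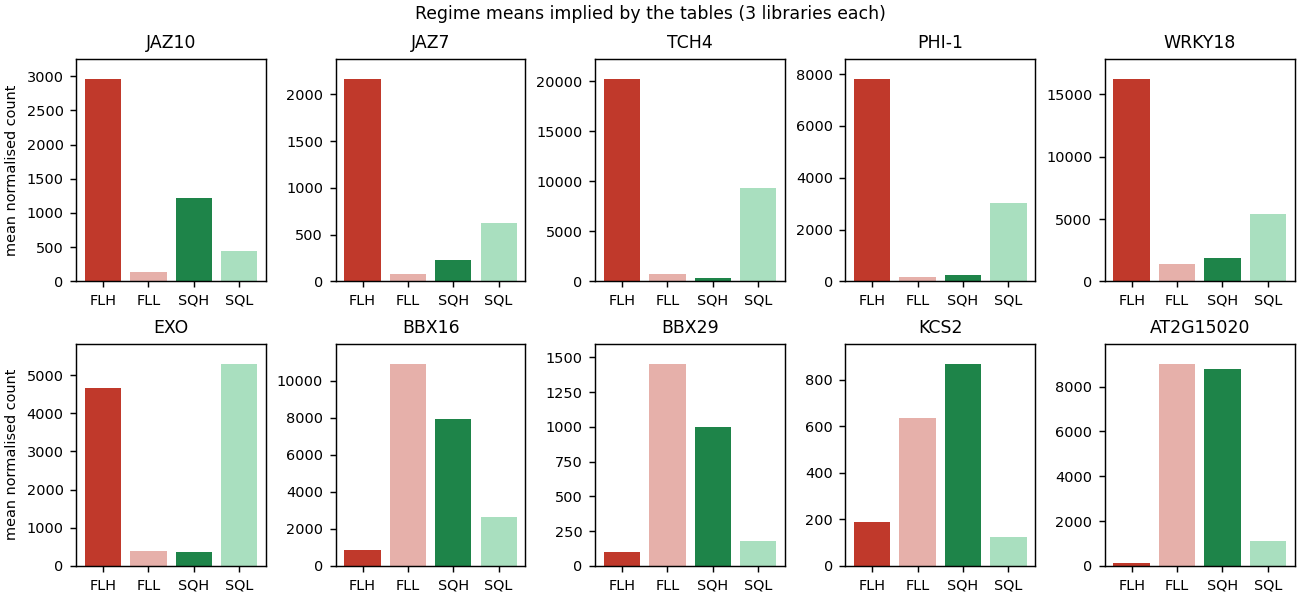
Mean normalised count in FLH, FLL, SQH and SQL (3 libraries each, no error bars because the means are implied by the tables) for 10 loci listed in at least 3 tables; each panel has its own vertical axis from 0. TCH4 and PHI-1 are high in FLH and SQL, and BBX29 and KCS2 in FLL and SQH; of the panels, only these 4 and EXO were also listed between SQH and SQL.

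JAZ10 averaged 2955 normalised counts in FLH and 144 in FLL, and 1219 in SQH and 447 in SQL, and it was not listed between SQH and SQL. AT2G15020, an uncharacterised protein that was not listed between SQH and SQL either, averaged 112 in FLH and 9012 in FLL, against 8780.2 in SQH and 1123 in SQL. KCS2 averaged 190.0 in FLH and 636 in FLL, and 868 in SQH and 125 in SQL. Such means were available for 180 of the 2063 loci.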

How the data were processed

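Leaf RNA was measured by RNA-seq in 12 libraries, 3 per regime, grouped by library title. The authors aligned reads to TAIR10 with HISAT2 and tested with DESeq2, and the submitters' processing notes also name SAMtools and featureCounts; versions are not given in the sources used here. The authors deposited 4 tables of called loci. The deposited mean normalised count is a signal, counts scaled by size factors. The deposited fold change and SE are on the log2 scale. The deposited Wald statistic is a score, and p-values and adjusted p-values were deposited beside it. These columns are the authors' own comparisons and were used because the loci are defined by them. No counts per library were used here, so nothing was refitted and depth gives no precision of its own.

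The number of loci tested follows from adjusted p divided by p. RefSeq's TAIR10.1 annotation held 2062 of the 2063 loci, and 963 of 1030 list symbols gave a locus. Loci, lists and 44 family patterns were chosen with earlier results of these data known, and 15 patterns were added after the annotation texts were seen. Per direction, the loci named were the 6 with the smallest p at a mean count of at least 100, the 4 with the largest 95% bound nearest 0, the 4 most abundant, up to 8 members of a list, the 2 with the smallest p of a family, and 4 loci of each kind in the interaction test. Loci named beyond this were chosen after their values were seen. Calculations used Python 3.11.15, pandas 2.3.3, numpy 2.4.6 and scipy 1.17.1, and the interaction test, count of tests and regime means were tested on simulated data. The simulated interaction test had no selection of loci by calls, and the simulated regime means had no noise. These simulations therefore checked the calculation only.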

Additional observations from a re-analysis of the deposited data

Results flagged for a closer look

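The fold changes of TCH4, EXO, DREB26 and AT5G23130 had opposite signs under the fluctuating and the square pattern, and these loci came first in the order of the z test over 141 loci. The difference of the log2 fold changes, FLH over FLL minus SQH over SQL, was 9.62 for TCH4, 7.44 for EXO, 9.67 for DREB26 and 2.73 for AT5G23130. Each was higher in FLH than in FLL and lower in SQH than in SQL. The loci were chosen by calls in both comparisons, so the test gives no independent support, and larger differences were seen for BT2 (10.11 ± 1.36) and SOB5 (9.95 ± 1.91). Values per library were not used, so the number of libraries that show each direction is not given.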

How the results depend on the processing

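The deposited tables hold only called loci, so thresholds were tightened only, no model was refitted, and leaving out a library was not possible. No paired analysis was possible because values per library were not used. Errors are the authors' SEs over 3 libraries per regime, and low mean counts limit the largest fold changes.

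With an adjusted p of at most 0.01 (authors' DESeq2), 924 loci remained listed, 488 higher and 436 lower in FLH, and 68 higher and 40 lower among the list loci. In both intensity comparisons 54 loci were then listed, 46 with opposite directions, all 46 past the threshold of the z test, and 8 with the same direction. The share of loci higher in FLH was 58.0% with log2 fold changes of 1 or more in size, and 60.5% with the 95% interval outside -0.5 to 0.5, where 621 loci were lower. Only in the 250 bases before the start, shares for higher in FLH and for all promoters were 22.9% and 16% (ABRE), 8.29% and 3.28% (CGCG box), 12.1% and 7.09% (DRE), 35% and 28.4% (W-box), 5.32% and 2.36% (evening element), 11.2% and 9.55% (heat shock core), and 3.51% and 4.49% (telo-box). For lower in FLH and all promoters they were 8.38% and 6.49% (G-box) and 13% and 12.3% (I-box), and for lower in FLH alone 19.1% (ABRE), 23.7% (W-box) and 7.83% (heat shock core). The GCC-box was in 1.87% of all promoters. The other 67 main values moved by less than 1.5 times for counts or stayed within the counting error for shares, and 40 of 245 single list counts moved by more, 25 of them at the adjusted p of at most 0.01. Stricter thresholds on deposited fold changes cannot turn a direction round; of the motifs, the telo-box changed its order between loci higher in FLH and all promoters.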

Other observations

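Glutaredoxins and glutathione transferases, which the lists do not hold as a group, were listed in both directions. Together with thioredoxins they had 9 higher (4.79%) and 5 lower (2.66%) in FLH, of 188 annotated. AT1G64500, a glutaredoxin family protein, was lower in FLH at -4.15 ± 0.78, with a mean normalised count of 5496, and AT3G21460 of the same family was at -3.04 ± 0.99, whereas GRXC2 was higher (1.06 ± 0.25). Of the transferases GSTU18 was lower (-1.62 ± 0.32) and GSTU11 higher (3.13 ± 0.95). Among CIPK kinases, which act with calcineurin B-like calcium sensors, CIPK1 (-2.45 ± 0.54), CIPK5 (-2.98 ± 0.8) and CIPK7 (-2.41 ± 0.64) were lower in FLH. The wider family of calcium-dependent and CBL kinases had 1 higher and 5 lower in FLH, of 51 annotated. The calcineurin B-like sensors were divided, with CBL1 higher (2.17 ± 0.46) and CBL10 (-1.44 ± 0.31) and CBL3 (-0.57 ± 0.16) lower. These loci were chosen after their values were seen.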
